A study of Rattus norvegicus with 8 samples.

Results

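Of 13915 rat genes measured in ovarian granulosa cells (GCs), 73 belong to the families of enzymes and subunits known to write, erase or move the marks and nucleosomes of chromatin. They were chosen by symbol alone, as the histone deacetylases and sirtuins, the lysine demethylases and methyltransferases, the arginine methyltransferases, the lysine acetyltransferases, the DNA methyltransferases, the TET dioxygenases and the SMARC subunits of remodelling complexes. The rule uses no measured value. It does not ask for an action on chromatin, and some members, such as *Hdac6*, *Hdac10* and *Sirt5*, are known for other targets. The GCs came from Sprague-Dawley rats 24 days of age, and the methods describe immature females and 3 separate collections of GCs. FSH cultures were given FSH at 100 ng/ml on top of the EGFP lentivirus (n = 3 arrays). PKA-CQR cultures received a lentivirus for a mutant catalytic subunit of protein kinase A that is active without cAMP (n = 3). EGFP cultures, the controls, received the virus for the green fluorescent protein alone (n = 2). RNA was collected 24 hr. after treatment, and every culture contained testosterone. FSH and EGFP cultures thus shared a virus, while the PKA-CQR cultures carried another one and no FSH.

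Acetyltransferases open chromatin by acetylating histone tails, and deacetylases remove the acetyl groups again. Methylation of lysines can mark active or silent chromatin depending on the residue, DNA methylation mostly marks silent DNA, and the SMARC proteins use ATP to slide or evict nucleosomes. In GCs, FSH raises cAMP and activates PKA, and PKA signalling is known to bring phosphorylation and acetylation of histone H3 to FSH target genes.

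Each value is a log2 signal of an Affymetrix probe set, so that a difference of 1 is a doubling, and signals of different probe sets are not set against each other. A gene was called where the limma p, adjusted over all 13915 genes, was under 0.05. The array medians lay between 8.37 and 8.44, with correlations of 0.993 to 0.997 between arrays within a group. Of the granulosa markers, 15 of 16 were measured, with *Foxl2* at a mean of 13.02 in FSH, 13.29 in PKA-CQR and 13.05 in EGFP cultures. Their mean signal per array was 11.62 to 11.92 in FSH cultures, 11.77 to 11.83 in PKA-CQR cultures and 9.56 to 9.90 in EGFP cultures. Of the 15, 13 were called higher with FSH and 11 with PKA-CQR (all genes, 13.4% and 6.48%). The list holds *Lhcgr*, *Cyp11a1*, *Star* and *Cyp19a1*, which the paper reports as raised by both stimuli. These means are thus no measure of granulosa cell content. The 8 smooth muscle and pericyte markers averaged 6.76 to 6.79 in FSH, 7.14 to 7.29 in PKA-CQR and 7.78 to 8.24 in EGFP cultures. With each stimulus, 5 of the 8 were lower (62.5%, against 12.1% of all genes with FSH and 6.02% with PKA-CQR). The 11 theca and stroma markers averaged 6.65 to 6.83 in FSH, 7.06 to 7.32 in PKA-CQR and 7.43 to 7.68 in EGFP cultures. Of the 11, 4 were lower with FSH (36.4%, against 12.1% of all genes) and 2 with PKA-CQR (18.2%, against 6.02%). The part of these other cells in the results below was not tested, and in such cultures fewer cells of a type and less RNA per cell cannot be told apart. Of 14 leukocyte markers, 3 were higher and 1 was lower with FSH (28.6% called, against 25.5% of all genes), and 0 were called with PKA-CQR. Their log2 differences with FSH ran from -0.88 to 1.13, with *Cd68*, a macrophage protein, up 0.69. *Ptprc* stood at 4.64 in FSH against 4.61 in EGFP cultures. Signals of 30 proliferation genes averaged 8.95 to 9.20 in FSH cultures and 9.27 to 9.31 in PKA-CQR, against 8.77 in both EGFP cultures.

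With FSH, 10 of the 73 genes were higher than in EGFP cultures (all genes, 13.4%) and 11 were lower (12.1%). With PKA-CQR, 3 were higher (6.48%) and 5 were lower (6.02%). Between the stimuli, 2 were higher in PKA-CQR than in FSH cultures (3.95%) and 1 was lower (2.96%). In all, 28.8% of the enzyme genes and 25.5% of all genes were called with FSH, and 11% and 12.5% with PKA-CQR. The median log2 fold change of the enzyme genes was 0.00 with FSH and -0.03 with PKA-CQR, and that of all genes was 0.06 and 0.03. Changes of 2-fold or more were seen in 2 enzyme genes with FSH (2.74%, against 6.1% of all genes) and in 1 with PKA-CQR (1.37%, against 2.72%). The 51 genes called in no comparison had log2 fold changes of -0.30 to 0.39 with FSH and -0.26 to 0.24 with PKA-CQR. For 44 of these 51 with FSH and 47 with PKA-CQR, the whole 95% interval lay within 1.5-fold of EGFP. Both stimuli were read against the same EGFP arrays, so that their values below stand side by side and are not independent. The plot by enzyme family shows a few low points among the class IIa deacetylases and the lysine methyltransferases.

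**Figure D1:**
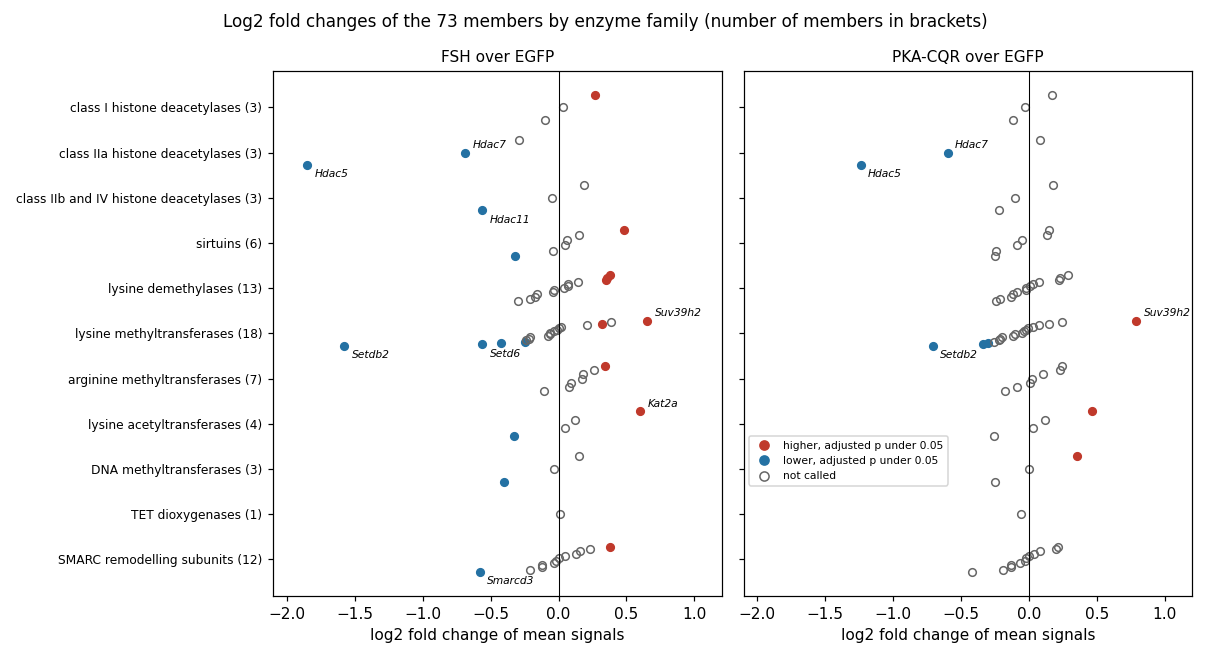
Log2 fold changes of the 73 genes (horizontal axis) by enzyme family (vertical axis), FSH over EGFP on the left and PKA-CQR over EGFP on the right. Each point is 1 gene, red where higher and blue where lower at an adjusted p under 0.05. *Hdac5* lies at -1.85 with FSH and -1.24 with PKA-CQR, while most points lie near 0.

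Class IIa deacetylases have little catalytic activity of their own, bind MEF2 factors and recruit corepressors. They can leave the nucleus when phosphorylated at certain sites. *Hdac5*, one of them, fell more than any other of the 73 genes. Its signal was 8.58, 8.95 and 8.76 in FSH cultures and 9.35, 9.25 and 9.52 in PKA-CQR cultures, against 10.56 and 10.66 in EGFP cultures. The 3 groups did not overlap, and every PKA-CQR array lay between the FSH and the EGFP arrays. It was 3.61-fold lower with FSH (log2 -1.85 ± 0.12, SE, adjusted p = 1.56e-05) and 2.36-fold lower with PKA-CQR (-1.24 ± 0.12, adjusted p = 0.00042). *Hdac7*, known for its role in the vessel wall and in thymocytes, had signals of 7.97, 8.16 and 8.19 in FSH cultures and 8.16, 8.08 and 8.35 in PKA-CQR cultures, against 8.73 and 8.87 in EGFP cultures. Both stimulated groups overlapped each other and lay below the controls. The falls were 1.62-fold with FSH (-0.69 ± 0.11, adjusted p = 0.00163) and 1.52-fold with PKA-CQR (-0.60 ± 0.11, adjusted p = 0.00708), the second at an adjusted p of 0.0528 without EGFP replicate 2. *Hdac4*, the remaining class IIa gene measured, had 9.43, 9.24 and 8.96 in FSH cultures and 9.64, 9.50 and 9.60 in PKA-CQR cultures, against 9.42 and 9.59 in EGFP cultures, and was not called (adjusted p = 0.143 with FSH and 0.802 with PKA-CQR).

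The class I deacetylases, the catalytic subunits of the large corepressor complexes, moved little. *Hdac3*, an enzyme of nuclear corepressor complexes, had 10.33, 10.49 and 10.38 in FSH cultures and 10.30, 10.29 and 10.28 in PKA-CQR cultures, against 10.21 and 10.04 in EGFP cultures. It was 1.21-fold higher with FSH (0.27 ± 0.08, adjusted p = 0.0396), a call that was lost with the replicate number as a block (adjusted p = 0.0626) and without EGFP replicate 2, FSH replicate 2 or 3 or any PKA-CQR array (adjusted p 0.0624 to 0.23). *Hdac2*, which serves the Sin3, NuRD and CoREST complexes, differed by -0.10 with FSH and -0.03 with PKA-CQR, and *Hdac8* by 0.03 and -0.12, none of them called. Among the other classic deacetylases, *Hdac11*, the only class IV enzyme, had 6.17, 6.04 and 5.80 in FSH cultures and 6.41, 6.32 and 6.30 in PKA-CQR cultures, against 6.43 and 6.70 in EGFP cultures. All FSH arrays lay below both other groups, and the PKA-CQR arrays lay just below the controls. It was 1.47-fold lower with FSH (-0.56 ± 0.12, adjusted p = 0.0108, but 0.0868 without EGFP replicate 2), and its PKA-CQR difference of -0.22 was not called (adjusted p = 0.336). *Hdac6*, the tubulin deacetylase, differed by 0.19 and 0.18, and *Hdac10*, a polyamine deacetylase, by -0.05 and -0.10, none called.

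Sirtuins are deacylases that depend on NAD, and 2 of the 6 measured were called, both with FSH (33.3%, against 25.5% of all genes). *Sirt7*, a nuclear and nucleolar deacetylase, had 9.94, 9.90 and 10.07 in FSH cultures and 9.57, 9.63 and 9.67 in PKA-CQR cultures, against 9.55 and 9.44 in EGFP cultures. The FSH arrays stood above all others, while the PKA-CQR arrays lay just above the controls. It was 1.40-fold higher with FSH (0.48 ± 0.08, adjusted p = 0.00262) and differed by 0.13 with PKA-CQR (adjusted p = 0.389). *Sirt5*, a mitochondrial desuccinylase, had 10.61, 10.60 and 10.79 in FSH cultures and 10.69, 10.67 and 10.84 in PKA-CQR cultures, against 10.96 and 11.01 in EGFP cultures. Both groups of stimulated arrays lay below the controls. It was 1.25-fold lower with FSH (-0.32 ± 0.09, adjusted p = 0.0296), which was lost without either EGFP array or without FSH replicate 1 or 2 (adjusted p 0.0737 to 0.13), and its PKA-CQR difference of -0.25 was not called (adjusted p = 0.113), called with the replicate block (0.0282) and not called with EGFP replicate 2 placed in block 3 (0.0777). The 4 other sirtuins, among them the mitochondrial *Sirt3* and *Sirt4*, differed by -0.04 to 0.15 with FSH.

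Of the 4 lysine acetyltransferases, 1 rose and 1 fell with FSH (50% called, from few genes, against 25.5% of all genes). *Kat2a*, the GCN5 enzyme of the SAGA and ATAC coactivator complexes, had 9.70, 9.74 and 9.88 in FSH cultures and 9.54, 9.56 and 9.79 in PKA-CQR cultures, against 9.10 and 9.25 in EGFP cultures. No stimulated array reached down to the controls. The increase was 1.52-fold with FSH (0.60 ± 0.10, adjusted p = 0.00275) and 1.37-fold with PKA-CQR (0.46 ± 0.10, adjusted p = 0.0202), the second not called without EGFP replicate 1 (adjusted p = 0.156) or PKA-CQR replicate 3 (0.0555). *Kat6a*, the MOZ acetyltransferase, had 10.31, 10.38 and 10.46 in FSH cultures and 10.42, 10.45 and 10.50 in PKA-CQR cultures, against 10.63 and 10.80 in EGFP cultures. It was lower than in the controls on all 6 stimulated arrays. The fall with FSH was 1.26-fold (-0.33 ± 0.08, adjusted p = 0.0194), lost without EGFP replicate 2 or FSH replicate 1 or 2 (adjusted p 0.0517 to 0.135). With PKA-CQR the difference was -0.26, not called without the replicate block (adjusted p = 0.0874) and called with it (0.0478). *Kat5* and *Kat7*, the TIP60 and HBO1 enzymes, differed by 0.12 and 0.05 with FSH, not called.

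The lysine methyltransferases were the largest family, with 18 genes. Under FSH, 2 rose and 4 fell (33.3% called, against 25.5% of all genes). Under PKA-CQR, 1 was higher and 3 were lower (22.2% called, against 12.5% of all genes). The steepest changes were in opposite directions in a pair of enzymes for lysine 9 of histone H3, a mark of silent chromatin. *Setdb2* had 8.12, 7.92 and 8.01 in FSH cultures and 9.04, 8.82 and 8.80 in PKA-CQR cultures, against 9.68 and 9.52 in EGFP cultures. The 3 groups were fully apart, with the PKA-CQR arrays in the middle. It was 3.00-fold lower with FSH (-1.58 ± 0.10, adjusted p = 1.35e-05) and 1.64-fold lower with PKA-CQR (-0.71 ± 0.10, adjusted p = 0.00251). *Suv39h2*, an enzyme of pericentric heterochromatin, had 6.86, 6.83 and 6.65 in FSH cultures and 6.95, 6.87 and 6.94 in PKA-CQR cultures, against 6.28 and 5.98 in EGFP cultures. Both stimulated groups lay above the controls, the PKA-CQR arrays narrowly above the FSH arrays. It was 1.57-fold higher with FSH (0.65 ± 0.11, adjusted p = 0.00218) and 1.73-fold higher with PKA-CQR (0.79 ± 0.11, adjusted p = 0.00178), and it was called in each fit that left out 1 array. The mean signal of the proliferation genes was also higher on the stimulated arrays. Of these 30 genes, 12 were called higher and 1 lower with FSH, and 19 higher and 0 lower with PKA-CQR. Among all genes, 13.4% were called higher with FSH and 6.48% with PKA-CQR. The part of proliferation in the *Suv39h2* result was not tested. *Suv39h1*, its paralog, whose probe set is also assigned to a pseudogene, differed by 0.21 and 0.24 (adjusted p = 0.128 and 0.147), and *Setdb1* and *Ehmt2*, further enzymes for the same lysine, by 0.02 and 0.00 with FSH.

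Other SET-domain genes changed less. *Setd6*, which methylates the RelA subunit of NF-kB, had 9.35, 9.47 and 9.55 in FSH cultures and 9.73, 9.66 and 9.98 in PKA-CQR cultures, against 10.01 and 10.02 in EGFP cultures. It was 1.47-fold lower with FSH (-0.56 ± 0.11, adjusted p = 0.00522) and differed by -0.22 with PKA-CQR (adjusted p = 0.252). *Setd5* had 10.29, 10.29 and 10.28 in FSH cultures and 10.30, 10.36 and 10.46 in PKA-CQR cultures, against 10.65 and 10.77 in EGFP cultures. Its stimulated arrays were all below its control arrays, by 1.34-fold with FSH (-0.42 ± 0.08, adjusted p = 0.00396) and 1.26-fold with PKA-CQR (-0.34 ± 0.08, adjusted p = 0.0223). The PKA-CQR call on *Setd5* was lost without either EGFP array or without PKA-CQR replicate 1 or 2 (adjusted p 0.0561 to 0.135). *Setd4* had 9.99, 10.07 and 10.08 in FSH cultures and 9.77, 9.95 and 9.92 in PKA-CQR cultures, against 9.69 and 9.76 in EGFP cultures. It was 1.25-fold higher with FSH (0.32 ± 0.08, adjusted p = 0.0184), which was lost without either EGFP array or FSH replicate 2 (adjusted p 0.0533 to 0.113), and differed by 0.15 with PKA-CQR (adjusted p = 0.294).

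The catalytic subunits of Polycomb repressive complex 2, which methylates lysine 27 of histone H3, are *Ezh1* and *Ezh2*. *Ezh1* had 8.93, 9.07 and 8.94 in FSH cultures and 8.86, 8.98 and 8.94 in PKA-CQR cultures, against 9.24 and 9.22 in EGFP cultures. Every stimulated array lay under the controls, by 1.19-fold with FSH (-0.25 ± 0.08, adjusted p = 0.0476) and 1.23-fold with PKA-CQR (-0.30 ± 0.08, adjusted p = 0.0364). The FSH call was lost with the replicate block (adjusted p = 0.0604) and in each fit without 1 array except that without FSH replicate 2 (0.061 to 0.181). The PKA-CQR call was lost when any 1 EGFP or PKA-CQR array was left out (0.067 to 0.174). *Ezh2* differed by -0.08 and -0.05, with 8.66, 8.46 and 8.17 in FSH cultures and 8.69 and 8.33 in EGFP cultures, and was not called. None of the 5 *Kmt2* genes, which code for the MLL family of enzymes and its relatives, was called. *Kmt2a*, the first MLL enzyme described, differed by -0.22 with FSH and -0.21 with PKA-CQR (adjusted p = 0.164 and 0.24), and *Kmt2c* and *Kmt2d*, which act at enhancers, by -0.03 and -0.01 with FSH. *Kmt2e* had 12.16, 12.08 and 11.43 in FSH cultures and 12.23 and 11.97 in EGFP cultures, with the lowest signal on FSH replicate 3. The same array was the lowest of the 8 for *Kdm5a* at 10.32, against 11.30 and 11.31 on the other FSH arrays, and for *Smarce1* at 9.83, against 10.85 and 10.59. It also had the highest 3′ minus 5′ difference of the beta-actin probe sets, a measure of RNA integrity, at 1.88, against 1.30 and 1.45 on the other FSH arrays, 1.34 to 1.66 in PKA-CQR and 1.02 and 1.53 in EGFP cultures, and the part of RNA integrity in these spreads was not tested. *Setd8*, the enzyme for lysine 20 of histone H4 that is now called *Kmt5a*, differed by 0.39 with FSH, not called without the replicate block (adjusted p = 0.117) and called with it (0.0212), though not with EGFP replicate 2 placed in block 3.

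**Figure D2:**
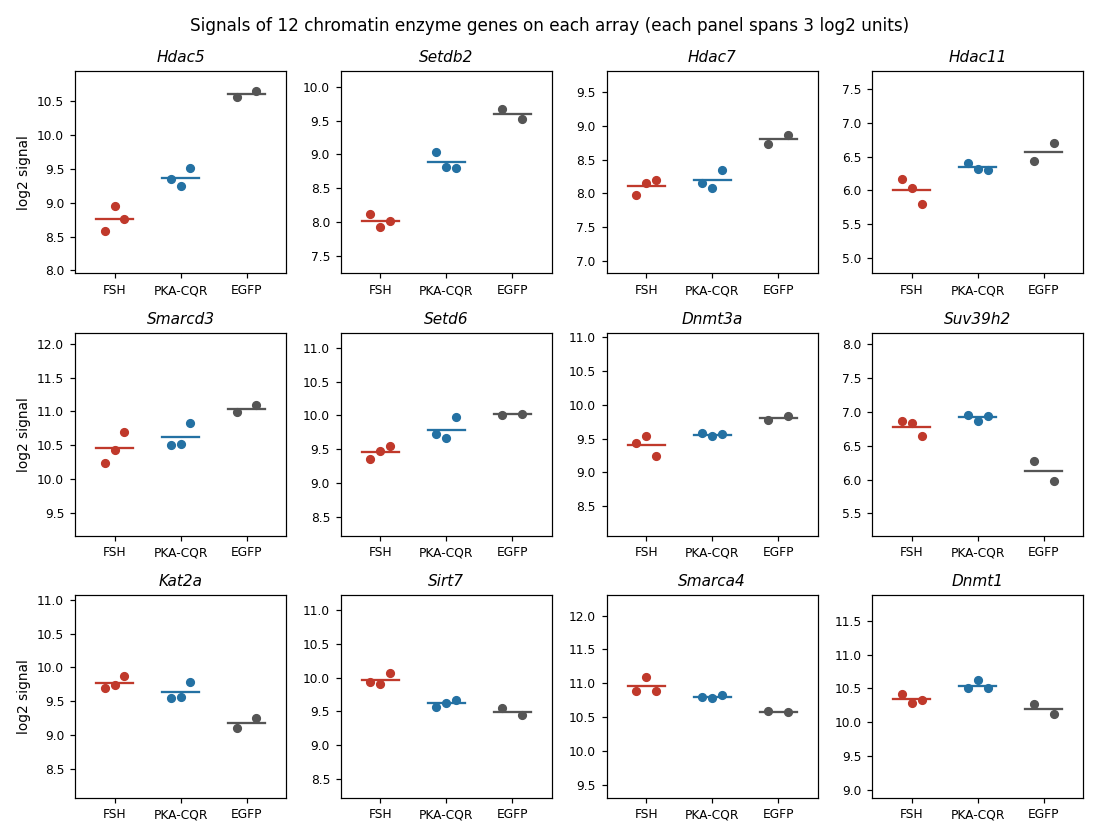
Log2 signals of 12 chromatin enzyme genes on each array, with FSH, PKA-CQR and EGFP cultures along the horizontal axis of each panel; points are arrays and bars are group means. Each panel spans 3 log2 units, so that the distances can be set side by side. *Hdac5* and *Setdb2* show 3 separate levels, while *Suv39h2* and *Kat2a* are higher with both stimuli.

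Of the 73 genes, 62 have a promoter in the RefSeq tables of the rat genome build GRCr8, and the 250 bases before the start of each were searched on both strands. The first promoter listed was taken for each gene, while the comparison set held every distinct promoter in the tables, so that the 2 sets were built differently. The motif sought first was the cAMP response element TGACGTCA, which reads the same on both strands and binds CREB, a PKA substrate, and next its shorter form TGACG, which is also part of the full element. The full element was found in 2 of 62 promoters (3.2%, against 1.6% of 33360 promoters), those of *Suv39h2* and *Prmt10*. The short form was found in 22 (35.5%, against 18.2%), while the median GC content was 62.2% in the enzyme promoters and 51.6% in all. Among promoters of the genes that rose with FSH, 2 of 9 held the short form, and of those that fell, 1 of 7 did. For the probe set named *Kdm6a*, one of those with the short form, the promoter matched is that of *Uty* on the Y chromosome, to which the platform annotation assigns it, although the rats were female. The 3 promoters shown here belong to *Hdac5* and *Setdb2*, the 2 genes with the largest falls, and to *Suv39h2*, the gene with the largest rise, and are given 5′ to 3′ on the strand of the gene with the motif in capitals.
Hdac5 (chr10:87688055-87688304, minus strand): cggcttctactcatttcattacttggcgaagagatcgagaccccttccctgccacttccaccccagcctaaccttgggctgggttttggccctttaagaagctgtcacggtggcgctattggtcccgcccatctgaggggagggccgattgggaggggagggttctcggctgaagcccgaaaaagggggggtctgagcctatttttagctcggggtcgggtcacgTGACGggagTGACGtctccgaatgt
Setdb2 (chr15:37782564-37782813, minus strand): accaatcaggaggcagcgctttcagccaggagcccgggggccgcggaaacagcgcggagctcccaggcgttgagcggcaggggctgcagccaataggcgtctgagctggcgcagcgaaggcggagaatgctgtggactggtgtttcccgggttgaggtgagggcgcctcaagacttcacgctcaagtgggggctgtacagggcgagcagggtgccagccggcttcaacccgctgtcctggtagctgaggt
Suv39h2 (chr17:79665217-79665466, plus strand): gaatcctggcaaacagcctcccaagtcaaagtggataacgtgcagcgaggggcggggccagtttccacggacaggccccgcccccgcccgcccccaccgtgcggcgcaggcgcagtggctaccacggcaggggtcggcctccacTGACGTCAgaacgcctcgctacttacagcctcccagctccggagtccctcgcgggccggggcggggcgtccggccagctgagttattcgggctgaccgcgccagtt
In *Hdac5*, the short form lies 25 to 21 and 16 to 12 bases before the start, and in *Suv39h2* the full element lies 106 to 99 bases before it. The *Setdb2* stretch holds neither. The E2F motif (TTTGGCGC, TTTCGCGC or TTTCCCGC) was found in 3.2% of the enzyme promoters and 1.4% of all, the SF-1 motif (AAGGTCA) in 3.2% and 4.0%, and the FOXO motif (TGTTTAC) in 1.6% and 3.2%. These matches describe letters only, and no binding was measured.

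Lysine demethylases remove methyl groups from histones. Of the 13 measured, 3 rose with FSH and 0 fell in limma (23.1% called, against 25.5% of all genes). With PKA-CQR, 0 were called, against 12.5% of all genes. Their median log2 fold change with FSH was 0.04, with 7 of the 13 above 0. At an unadjusted p under 0.05, 3 were higher and 0 lower with FSH and 2 higher and 0 lower with PKA-CQR, while the methods' t-test called 0 after adjustment. Like most of the 13, the 3 that rose carry a JmjC domain. *Kdm6a* and *Kdm6b* act on the lysine that Polycomb repressive complex 2 methylates. *Kdm6b* had 9.69, 9.85 and 9.86 in FSH cultures and 9.67, 9.51 and 9.79 in PKA-CQR cultures, against 9.32 and 9.52 in EGFP cultures. The FSH arrays lay above the controls, while the lowest PKA-CQR array lay among them. It was 1.30-fold higher with FSH (0.38 ± 0.11, adjusted p = 0.0331), which the replicate block did not call (adjusted p = 0.0546) and which was lost without EGFP replicate 1, FSH replicate 2 or 3 or PKA-CQR replicate 1 (0.055 to 0.219). The probe set named *Kdm6a* had 12.42, 12.30 and 12.26 in FSH cultures and 12.20, 12.24 and 12.33 in PKA-CQR cultures, against 11.85 and 12.08 in EGFP cultures. The platform annotation gives it to *Uty*, the relative of *Kdm6a* on the Y chromosome, although the rats were female. It was 1.28-fold higher with FSH (0.36 ± 0.09, adjusted p = 0.0221) and lost its call without EGFP replicate 1 or FSH replicate 1 or 2 (0.053 to 0.172). *Kdm8* had 9.06, 9.04 and 8.82 in FSH cultures and 8.86, 8.83 and 8.83 in PKA-CQR cultures, against 8.69 and 8.56 in EGFP cultures. It was 1.27-fold higher with FSH (0.35 ± 0.09, adjusted p = 0.0241), lost without either EGFP array or FSH replicate 1 or 2 (0.0507 to 0.144). The PKA-CQR differences of *Kdm6a*, *Kdm6b* and *Kdm8* were 0.29, 0.23 and 0.22 (adjusted p = 0.0873, 0.235 and 0.191). *Kdm1a*, the LSD1 enzyme of the CoREST complex, had a difference of -0.17 with FSH and -0.12 with PKA-CQR, not called.

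Among the 7 arginine methyltransferases, *Prmt6*, which acts on histone H3 and opposes MLL complexes, had 8.30, 8.31 and 8.20 in FSH cultures and 8.10, 8.33 and 8.10 in PKA-CQR cultures, against 8.03 and 7.83 in EGFP cultures. It was 1.26-fold higher with FSH (0.34 ± 0.10, adjusted p = 0.0387), lost without EGFP replicate 2, FSH replicate 1 or 2 or PKA-CQR replicate 1 or 3 (0.0513 to 0.223), and 0.24 above EGFP with PKA-CQR (adjusted p = 0.178). *Prmt5*, the main enzyme of symmetric arginine methylation, differed by 0.26 and 0.23 (adjusted p = 0.159 and 0.285). *Prmt10*, now called *Prmt9*, whose promoter holds the full cAMP response element, had 9.82, 9.85 and 9.88 in FSH cultures and 9.96, 9.97 and 9.99 in PKA-CQR cultures, against 9.96 and 9.96 in EGFP cultures, with no call.

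Of the 3 DNA methyltransferases measured, 1 fell with FSH and another rose with PKA-CQR. Each is 33.3% called, from few genes, against 25.5% of all genes with FSH and 12.5% with PKA-CQR. *Dnmt1* copies methylation onto new DNA strands at replication. It had 10.42, 10.28 and 10.33 in FSH cultures and 10.50, 10.63 and 10.50 in PKA-CQR cultures, against 10.27 and 10.12 in EGFP cultures. The PKA-CQR arrays stood above all others. It was 1.27-fold higher with PKA-CQR (0.35 ± 0.08, adjusted p = 0.0298), lost when any 1 EGFP or PKA-CQR array was left out (0.0584 to 0.171), and differed by 0.15 with FSH (adjusted p = 0.253), while its direct difference of 0.20 between PKA-CQR and FSH was not called (adjusted p = 0.198). The mean signal of the proliferation genes was higher in PKA-CQR than in FSH cultures, with 2 of 30 called (6.67%, against 6.91% of all genes). The part of proliferation in the *Dnmt1* result was not tested. *Dnmt3a*, which sets new methylation, had 9.44, 9.54 and 9.24 in FSH cultures and 9.58, 9.53 and 9.56 in PKA-CQR cultures, against 9.78 and 9.83 in EGFP cultures. It was 1.32-fold lower with FSH (-0.40 ± 0.09, adjusted p = 0.015), lost without EGFP replicate 1 (0.0597) or 2 (0.0835), and -0.25 from EGFP with PKA-CQR (adjusted p = 0.146). *Dnmt3b*, its relative, had -0.03 with FSH and 0.00 with PKA-CQR, and *Tet3*, which oxidizes methylated cytosine, had 0.01 and -0.06, with no call.

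The 12 SMARC genes held 1 rise and 1 fall with FSH (16.7% called, against 25.5% of all genes). *Smarca4*, the BRG1 ATPase of the BAF complex, had 10.89, 11.10 and 10.89 in FSH cultures and 10.80, 10.78 and 10.82 in PKA-CQR cultures, against 10.59 and 10.57 in EGFP cultures. Its groups did not overlap. It was 1.30-fold higher with FSH (0.38 ± 0.08, adjusted p = 0.00958, but 0.0546 without EGFP replicate 2) and 0.21 above EGFP with PKA-CQR (adjusted p = 0.146). *Smarcd3*, the BAF60C subunit that links the complex to tissue-specific factors, had 10.24, 10.43 and 10.69 in FSH cultures and 10.51, 10.52 and 10.83 in PKA-CQR cultures, against 10.99 and 11.09 in EGFP cultures. All 6 stimulated arrays lay below the controls, with replicate 3 the highest in both stimulated groups. The fall with FSH was 1.5-fold (-0.58 ± 0.15, adjusted p = 0.0189), lost without either EGFP array or FSH replicate 2 (0.0552 to 0.102), and reached an adjusted p of 0.000696 with the replicate block. With PKA-CQR the difference was -0.42, not called without the block (adjusted p = 0.112) and called with it (0.00512). *Smarcd1* and *Smarcd2*, the other members of its subunit group, differed by -0.12 and 0.13 with FSH. *Smarca2*, the BRM ATPase that can take the place of *Smarca4*, differed by -0.03, and *Smarca5*, the ISWI ATPase, by 0.16 with FSH and 0.20 with PKA-CQR, none called.

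The direct comparison asked where GCs with active PKA alone differed from GCs under FSH. *Setdb2* was 1.83-fold higher in PKA-CQR than in FSH cultures (0.87 ± 0.09, adjusted p = 0.0011), by 0.92, 0.90 and 0.80 in the arrays of replicates 1, 2 and 3. *Hdac5* was 1.53-fold higher (0.61 ± 0.11, adjusted p = 0.012, but 0.0507 without PKA-CQR replicate 1), by 0.77, 0.31 and 0.77. Both had fallen less with PKA-CQR than with FSH. *Sirt7* was 1.27-fold lower (-0.35 ± 0.07, adjusted p = 0.0241), by -0.37, -0.27 and -0.41, and lost its call in the 6 fits without 1 FSH or PKA-CQR array (0.0515 to 0.103). *Setd6* differed by 0.33 ± 0.10, which was called with the replicate block (adjusted p = 0.0295) but not without it (0.0842). For *Suv39h2* the difference was 0.14 (95% interval -0.07 to 0.36), for *Hdac7* 0.09 (-0.13 to 0.31) and for *Kat2a* -0.14 (-0.35 to 0.06), with 0 of these 3 called (adjusted p = 0.516, 0.718 and 0.492). *Hdac11* differed by 0.34 (0.08 to 0.59, adjusted p = 0.134), and *Hdac4* by 0.37 (adjusted p = 0.116). For 66 of the 73 genes the 95% interval of this difference lay within 1.5-fold.

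**Figure D3:**
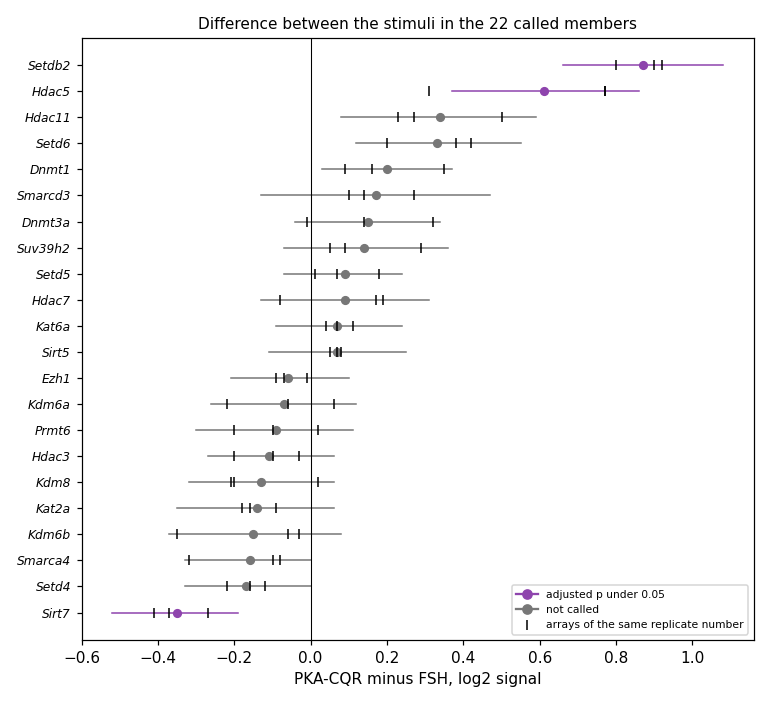
Difference in log2 signal between PKA-CQR and FSH cultures (horizontal axis) for the 22 genes called in any comparison (vertical axis), with points for the limma estimate and lines for its 95% interval. Ticks mark the differences between arrays of the same replicate number, and purple marks an adjusted p under 0.05. *Setdb2* at 0.87, *Hdac5* at 0.61 and *Sirt7* at -0.35 were called.

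Partners of these enzymes were read from lists written from general knowledge. Of 24 deacetylase corepressor partners, 4 rose and 3 fell under FSH (29.2% called, against 25.5% of all genes). *Mta2*, of the NuRD complex, was higher by 0.35 with FSH, while its relative *Mta3* (-0.54 and -0.41) and *Tbl1xr1* of the NCoR complex (-0.52 and -0.65) fell with both stimuli. Of 13 other acetyltransferases and coactivators, 4 rose and 0 fell with FSH in limma (30.8% called, against 25.5% of all genes). At an unadjusted p under 0.05, 6 rose and 0 fell. Among the 4 were *Naa60* (0.37) and *Hat1*, which acetylates newly made histone H4 (0.36). With PKA-CQR, 1 rose, again *Hat1* (0.37), which is 7.69% called, against 12.5% of all genes. Of 24 Polycomb partners, 2 rose and 2 fell with FSH (16.7% called, against 25.5% of all genes). *Pcgf5*, a subunit of Polycomb repressive complex 1, had 9.58, 9.78 and 9.69 in FSH cultures and 9.90, 9.76 and 9.87 in PKA-CQR cultures, against 11.33 and 10.96 in EGFP cultures. That gap was -1.47 with FSH (adjusted p = 4.33e-05) and -1.30 with PKA-CQR (0.000282), and the stimulated arrays lay more than 1 log2 unit below the controls. *Jarid2*, a cofactor of Polycomb repressive complex 2, rose by 0.51 with FSH (adjusted p = 0.00413), *L3mbtl2* rose by 0.24, and *Asxl1* fell by 0.37.

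Among 26 further methyltransferases and COMPASS partners, *Ncoa6* alone was called with FSH in limma (-0.26, adjusted p = 0.0386), which is 3.85%, against 25.5% of all genes. With PKA-CQR, limma called 0 (1 higher and 1 lower at an unadjusted p under 0.05), against 12.5% of all genes. Of 7 other JmjC genes, 1 rose and 2 fell with FSH (42.9% called, from few genes, against 25.5% of all genes). *Phf8*, a demethylase linked to active promoters, was lower by -0.83 with FSH (adjusted p = 0.00048) and -0.48 with PKA-CQR (0.0179), *Hr* by -0.33 with FSH, and *Mina*, now called *Riox2*, was higher by 0.39. Of 38 other remodelling subunits, FSH raised 6 and lowered 3 (23.7% called, against 25.5% of all genes). PKA-CQR raised 1 (2.63%, against 12.5% of all genes). *Hells*, a remodeller that aids DNA methylation, had 9.31, 9.15 and 9.27 in FSH cultures and 8.82, 9.09 and 9.24 in PKA-CQR cultures, against 8.24 and 8.56 in EGFP cultures, a rise of 0.84 and 0.65 (adjusted p = 0.00239 and 0.0173). *Chd9* rose by 0.58 with FSH, while *Atrx* had -0.52 and both *Bcl11a* and *Pbrm1*, of the BAF and PBAF complexes, had -0.44.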

How the data were processed

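Total RNA of 8 GC cultures was hybridized to Affymetrix rat genome arrays. The authors deposited log2 signals, and the submitters' processing notes name RMA, whereas the paper's methods name MAS5.0 values, which were not used here. RMA corrects background, brings arrays to one distribution and summarizes probes, so that small differences of dim probe sets are compressed. Of 31099 probe sets, 13915 have a gene symbol, each gene once, and only these were tested; 17128 without a symbol and 57 controls were left out. Of the 73 enzyme genes, 69 have the same single symbol in the platform annotation, 3 another symbol and 1 several. *Kdm6a* is listed there as *Uty*, *Prmt10* and *Setd8* under newer names.

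The 3 comparisons (each stimulus over EGFP, and PKA-CQR over FSH) used limma 3.58.1 under R 4.3.3 (lmFit and eBayes, 3 group means over all 8 arrays, no filter), with Benjamini-Hochberg adjustment over the 13915 genes and calls under 0.05. The code was tested on simulated data first. Named were every called enzyme gene, the one with the highest signal in each family, all members of families under 4, and in each list the 2 largest called rises and falls with FSH. The enzyme genes and lists were chosen with earlier results of these data known. One listed partner gene that the rule would name is not reported here. Promoters came from RefSeq (GRCr8).

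According to the methods, GCs were collected as 3 separate collections for the treatments. The main comparisons did not pair the arrays. Arrays of the same number were taken as paired only in the fits with a replicate block and in the differences given by replicate. Correlations of array deviations from the group means were 0.23, 0.44 and 0.62 between FSH and PKA-CQR arrays numbered 1, 2 and 3, 0.42 and 0.13 for EGFP replicate 1 with its number, and -0.27 and -0.32 for EGFP replicate 2. With 2 EGFP arrays, the deviations of 1 mirror those of the other, so their values are not separate evidence. EGFP replicate 1 had 0.27 and 0.32 with the arrays numbered 2, and EGFP replicate 2 had 0.52 and 0.41 with those numbered 3. FSH replicate 1 had 0.32 with PKA-CQR replicate 2. The paper draws both controls from the first and the second collection, whereas these values leave the pairing of both EGFP arrays and of number 1 in doubt. Alternatives were a filter on dim probe sets, all probe sets, other scalings, each array left out, the replicate number as a fixed or random block, other variance models, array weights, only the groups compared and the methods' t-test. A block with EGFP replicate 2 placed in number 3, a block on the 6 FSH and PKA-CQR arrays and a beta-actin covariate were added after seeing the data. The small number of arrays limits the precision.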

Additional observations from a re-analysis of the deposited data

How the results depend on the processing

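No called difference of an enzyme gene changed direction under any alternative. Of 32 calls, 32 were kept with a second quantile normalization, with robust variances and with a random replicate block, 31 with median centring, a variance trend or array weights and 30 over all probe sets; a filter on genes under the median signal left out 6 calls and kept the other 26. Leaving out 1 FSH or PKA-CQR array kept 22 to 28 of the 32 calls. More calls were lost without either EGFP array than without any other array, in fits where 1 control array remains. The replicate block gave 9 higher and 10 lower with FSH, 3 and 8 with PKA-CQR, and 3 and 1 in PKA-CQR over FSH, lost 3 calls and gained 5, all given above, and changed no other call. With EGFP replicate 2 placed in block 3 it lost 1 call and gained 7, with 3 lower in PKA-CQR over FSH, and on the 6 FSH and PKA-CQR arrays 4 higher and 2 lower. Array weights gave 6 higher and 5 lower there. With the beta-actin covariate, 6 were higher and 9 lower with PKA-CQR. Only the arrays of the 2 groups compared gave 6 higher and 7 lower with FSH and 3 lower with PKA-CQR, from fewer arrays. The methods' t-test after Benjamini-Hochberg called 3 genes, *Hdac5*, *Setdb2* and *Setd5*, lower with FSH and 0 elsewhere; at p under 0.001 it called 2 lower with FSH, 1 higher in PKA-CQR over FSH and 0 elsewhere. The causes of these shifts were not tested. Other probe sets of the same gene could not be compared, because the annotation used here covers only probe sets with a symbol. Each enzyme gene rests on 1 probe set, and 13 of the 73 lie under the median signal of all genes, where small changes are hard to see.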

Other observations

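Of 21 histone chaperones and acetyl-lysine readers, 2 rose and 2 fell under FSH (19% called, against 25.5% of all genes). PKA-CQR raised 3 and lowered 1 (19%, against 12.5% of all genes). The nucleosome assembly genes went both ways. *Nap1l3* had 8.75, 8.74 and 8.77 in FSH cultures and 9.10, 9.06 and 9.23 in PKA-CQR cultures, against 9.82 and 9.75 in EGFP cultures (-1.03 and -0.65, limma adjusted p = 2.54e-05 and 0.000885), while *Nap1l5* rose by 3.07 with FSH and 4.10 with PKA-CQR and *Nap1l1* fell by 0.23 with FSH. *Asf1b*, the histone chaperone of replicating cells, had 7.07, 7.08 and 7.15 in FSH cultures and 7.14, 7.08 and 7.18 in PKA-CQR cultures, against 6.57 and 6.58 in EGFP cultures, higher by 0.53 with FSH and by 0.56 with PKA-CQR.

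Among 17 genes that read or remove DNA methylation, 2 fell and 0 rose with FSH in limma (11.8% called, against 25.5% of all genes). At an unadjusted p under 0.05, 4 fell and 4 rose. The 2 called were *Gadd45b*, a stress gene linked to DNA demethylation (-2.57 with FSH and -1.93 with PKA-CQR), and *Zbtb4*, a reader (-0.47 and -0.28). With PKA-CQR, 1 rose and 3 fell (23.5% called, against 12.5% of all genes). *Uhrf1*, which brings *Dnmt1* to replicating DNA and was chosen after its values were seen, had 9.28, 8.90 and 9.27 in FSH cultures and 9.73, 9.59 and 9.90 in PKA-CQR cultures, against 8.86 and 8.78 in EGFP cultures. It was higher by 0.92 with PKA-CQR (adjusted p = 0.00295) and by 0.59 in PKA-CQR over FSH cultures (0.0232), and its FSH difference of 0.33 was not called (0.118). Of the 30 proliferation genes, *Rrm2*, whose probe set is also assigned to a related locus, and *Ccnd2* had the largest called rises with FSH (1.00 and 0.95), and *Cdk1* was lower by -0.29.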
